A study of Mus musculus with 2 samples.

Results

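The genes described here are the Wnt ligands, their receptors and antagonists, and the core of the pathway that carries their signal, in M210B4, a mouse line established from the stroma of bone marrow. Members were taken by gene symbol: the Wnt, Fzd, Sfrp, Dkk and Rspo families, Lgr4 to Lgr6, and a fixed set of single genes from Lrp5 to Rnf43. They make up 61 of the 22180 genes measured, of which 60 code for protein and 1, Fzd10os, is a long non-coding RNA whose symbol begins like those of the receptors. Tcf7 is not analysed here. One culture was exposed for 24 h to a CD84-activating antibody (clone 152-1D5) and the other for 24 h to IgG1, the isotype control, both in RPMI with 2% serum. CD84, a surface receptor of the SLAM group, pairs with CD84 of adjoining cells. RNA of each culture went onto 1 array (Affymetrix Mouse Gene 2.0 ST, with a single colour), and the values are log2 expression per probe set. A single line on 1 array per condition says nothing of other stromal cells, and no difference below has a replicate check, a standard error or a p-value. The number of arrays limits the precision.

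Wnts are secreted glycoproteins that carry a lipid. Porcn attaches the lipid and Wls carries the ligand to the cell surface, where it binds a frizzled receptor together with Lrp5 or Lrp6. Without a ligand, Axin, Apc and Gsk3b mark beta-catenin for breakdown. When a ligand binds, beta-catenin builds up and acts with TCF/LEF proteins on target genes. R-spondins and their LGR receptors hold back Znrf3 and Rnf43, the ubiquitin ligases that remove frizzled receptors from the surface. In bone marrow the pathway is known for steering stromal progenitors between bone and fat and for its part in the support of blood cells.

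A gene was called detected when its log2 value exceeded 4.84 on at least 1 array. That level is the 95th percentile of 1394 olfactory and vomeronasal receptor genes, genes of the sensory organs that stroma should lack. By it 42 members were detected (68.9%, against 59.9% of all genes), 32 of them on both arrays and 10 on 1 array alone. The detected genes as a whole had a median difference, anti-CD84 minus IgG1, of 0.09 on the log2 scale, with a standard deviation of 0.44. Cd84, which encodes the antibody's target, was not detected (4.15 after anti-CD84 and 3.82 after IgG1). Of 18 stromal and mesenchymal markers 15 were detected, among them Pdgfrb (11.92 after anti-CD84 and 11.45 after IgG1) and Col1a1 (12.52 and 12.53). Lepr, Nt5e and Eng were below the level on both arrays, and Thy1 (4.39 and 4.95) passed it only after IgG1. The leukocyte gene Ptprc (3.90 and 3.86) was not detected, and 4 of 15 blood cell markers were, among them Cd68 (5.95 and 6.21).

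Of the 42 detected members, 27 had a higher value after anti-CD84 (59.1% of all detected genes did) and 15 a lower one. At least 1.5-fold higher were 6 members, and 1 was lower by that factor. Among all 13284 detected genes, 10.7% were that much higher and 6.40% that much lower. The 6 higher members were the receptors Fzd2, Fzd5 and Fzd6, the ligands Wnt4 and Wnt7a, and the antagonist Wif1. The lower one was the antagonist Sfrp5. Only Fzd2 and Fzd5 of these were detected on both arrays, so the other 5 passed the filter through the array on which they were brighter. Among genes detected on both arrays, 9.57% were that much higher and 3.89% that much lower. No member was 2-fold apart in either direction, against 1.98% of detected genes that were 2-fold higher and 1.43% that were 2-fold lower. The median difference of the detected members was 0.11, beside 0.09 for all detected genes. It was 0.08 for the 34 detected members that are not frizzled receptors.

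**Figure D1:**
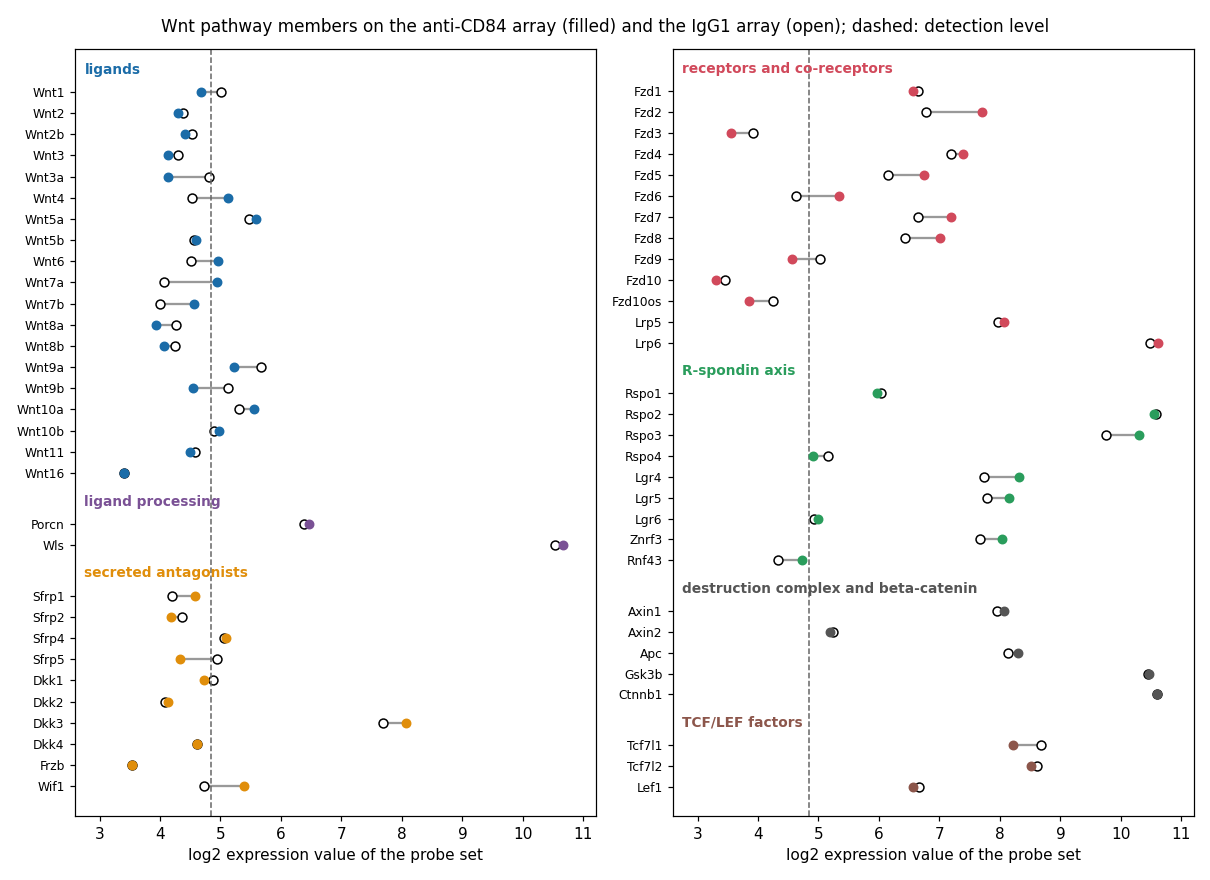
Log2 value of the probe set of each of the 61 members on the anti-CD84 array (filled circle) and the IgG1 array (open circle), by role, with 1 array per condition and the detection level of 4.84 dashed. The filled circles of Fzd2, Fzd5, Fzd7 and Fzd8 lie to the right of the open ones and clear of the detection level, while most Wnt ligands lie near or below it.

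Most frizzled receptors had higher values after anti-CD84, and Fzd2 had the largest difference of the members detected on both arrays. These proteins cross the membrane repeatedly and bind Wnts through a cysteine-rich domain outside the cell. Of 10 frizzled genes 8 were detected, 6 of those were higher after anti-CD84 (59.1% of all detected genes were) and 2 were lower, and 3 were at least 1.5-fold higher (10.7% of all). Fzd6, 1 of the 3, was detected only on the anti-CD84 array. Of the 6 detected on both arrays 2 were that much higher, against 9.57% of all such genes. Their median difference was 0.56, and across the processing alternatives it stayed between 0.37 and 0.56. Over the same alternatives the median of all genes ran from 0.00 to 0.12.

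Fzd2 had a log2 value of 7.70 after anti-CD84 and 6.78 after IgG1, which is 1.89-fold higher. Of all genes with a mean level from 7 to 9, 9.82% were at least 1.5-fold higher. Fzd2 was also the only member past 1.5-fold under all 8 alternatives. Only centring, loess removal and quantile normalization changed its difference of 0.92, to 0.83, 0.79 and 0.81. The other alternatives left it unchanged, so they add little. Of genes with a mean level from 6 to 7, 15.7% were at least 1.5-fold higher and 5.48% lower by that factor. Fzd5, in that range, stood at 6.75 against 6.14, or 1.52-fold higher, and it fell short of 1.5-fold when the arrays were centred, loess-corrected or quantile-normalized. Fzd8 stood at 7.01 against 6.42, a ratio of 1.499 that just missed the threshold. Fzd7, at 7.19 against 6.65, was 1.46-fold higher. All 4 of these receptors were detected on both arrays and brighter on the anti-CD84 array, by 0.54 to 0.92 on the log2 scale.

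The other frizzled genes were undetected on at least 1 array or differed by less. Fzd6, which is mostly known from planar cell polarity, was at 5.33 after anti-CD84 but below the detection level, at 4.62, after IgG1, so it was at least 1.41-fold higher, counted from the detection level. Folds written with "at least" are counted in this way throughout and allow for no noise in the brighter value. Fzd4, the receptor that also binds norrin, differed little (7.38 and 7.19), as did Fzd1 (6.56 and 6.65), which had the opposite sign. Fzd9 was at least 1.13-fold lower (4.56 and 5.02). Fzd3 (3.56 and 3.92), Fzd10 (3.30 and 3.45) and Fzd10os (3.86 and 4.25) were undetected on both arrays.

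The co-receptors differed far less than Fzd2. Lrp5 stood at 8.06 after anti-CD84 and 7.96 after IgG1. Lrp6 stood at 10.61 and 10.48. Their differences of 0.10 and 0.13 lay close to the median of all detected genes, and the sign of both turned in 1 of 8 alternatives. A further probe set of Lrp6, at 5.32 and 5.58, differed by -0.26.

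**Figure D2:**
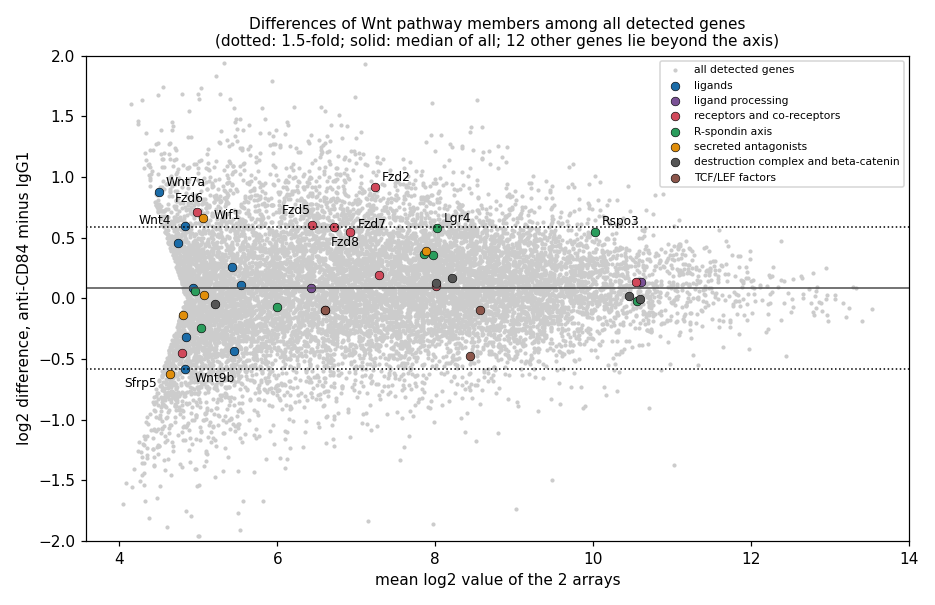
Log2 difference, anti-CD84 minus IgG1, against the mean log2 value of the 2 arrays for the 13284 detected genes (grey, with 12 beyond the axis not shown) and the 42 detected members (coloured by role), with 1.5-fold dotted and the median of all detected genes, 0.09, as a solid line. Fzd2 lies above the upper dotted line at a mean level over 7, and Fzd5, Fzd7, Fzd8, Lgr4 and Rspo3 lie close to it, while the other members past a dotted line have mean levels near 5 or below.

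Genes of the R-spondin axis had no member 1.5-fold apart, although Lgr4 and Rspo3 came near it. Of 9 genes 8 were detected, all of them on both arrays, with a median difference of 0.21. Rspo3, a secreted agonist that strengthens Wnt signals, stood at 10.31 after anti-CD84 and 9.76 after IgG1 and was 1.46-fold higher. Among all genes with a mean level above 9, 4.76% were at least 1.5-fold higher and 1.22% lower by that factor. Rspo2, its close relative, was nearly the same on both arrays (10.55 and 10.57). Rspo1 (5.96 and 6.03) and Rspo4 (4.91 and 5.16) had small differences of the opposite sign. By sign alone, 1 of 4 R-spondins was higher and 3 were lower, beside 59.1% of all detected genes that were higher. Those 3 differed by 0.02 to 0.25, less than the standard deviation of 0.44 over all detected genes.

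Of the receptors for R-spondins, Lgr4 stood at 8.32 against 7.74 and was 1.49-fold higher. Lgr5, also used as a stem cell marker in other tissues, stood at 8.15 against 7.79 and was 1.28-fold higher. Its further probe set, at 5.18 and 5.43, had the opposite sign (-0.25), and whether both target the same transcripts was not examined. Lgr6 was hardly different (4.99 and 4.93) and its sign turned when the difference was centred. Znrf3, the ligase that the R-spondins restrain, was 1.29-fold higher (8.04 against 7.68), and its partner Rnf43 was undetected on both arrays (4.73 and 4.33).

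The Wnt ligands themselves were mostly at or below the detection level. Of 19 ligand genes 9 were detected, but only Wnt5a, Wnt9a, Wnt10a and Wnt10b on both arrays. Wnt5a, the main ligand of the branch that does not use beta-catenin, stood at 5.59 after anti-CD84 and 5.48 after IgG1. Wnt10a stood at 5.56 and 5.30, and Wnt10b, a ligand that favours bone over fat, at 4.98 and 4.89. Wnt9a went the other way, at 5.23 and 5.66, and was 1.35-fold lower. None of these 4 was 1.5-fold apart. Of genes with a mean level from 5 to 6, as Wnt5a, Wnt9a and Wnt10a have, 11.3% were that much higher and 9.52% that much lower.

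The remaining detected ligands crossed the detection level on 1 array alone. Wnt7a was at 4.94 after anti-CD84 and 4.07 after IgG1, a measured difference of 0.87, yet only at least 1.07-fold higher when counted from the detection level. Wnt4 was at 5.13 and 4.53 (at least 1.22-fold higher) and Wnt6 at 4.96 and 4.51 (at least 1.09-fold higher). Wnt9b, at 4.54 and 5.12, was at least 1.22-fold lower and Wnt1, at 4.68 and 5.00, at least 1.12-fold lower. At such levels large differences are common in both directions: of all detected genes with a mean level below 5, 13.9% were higher by 1.5-fold or more and 20.4% lower. Wnt2, Wnt2b, Wnt3, Wnt3a, Wnt5b, Wnt7b, Wnt8a, Wnt8b, Wnt11 and Wnt16 were undetected on both arrays, so no fold is given for them. In contrast with the ligands, both genes that process and release them were detected on both arrays and nearly alike on them, Porcn at 6.47 and 6.38 and Wls at 10.67 and 10.54.

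Secreted antagonists were detected in 5 of 10 cases and had no common direction. Dkk3, a divergent member of the Dickkopf family, was detected clear of the level on both arrays, at 8.07 after anti-CD84 and 7.68 after IgG1, and was 1.31-fold higher. Wif1, which binds Wnts outside the cell, was at 5.39 and 4.72, at least 1.46-fold higher. Sfrp5, a decoy that carries a frizzled-like domain, was at 4.33 and 4.95, at least 1.08-fold lower. Sfrp4 (5.08 and 5.05) hardly differed. Dkk1, which blocks Lrp5 and Lrp6, lay about at the detection level (4.73 and 4.87). Sfrp1, Sfrp2, Frzb, Dkk2 and Dkk4 were undetected on both arrays.

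By their brightest probe sets as deposited, the genes that control and carry beta-catenin were close to equal on the arrays. Ctnnb1, which encodes beta-catenin, stood at 10.59 after anti-CD84 and 10.60 after IgG1. Gsk3b stood at 10.47 and 10.45. The scaffold genes Apc (8.29 and 8.13) and Axin1 (8.07 and 7.95) differed by 0.17 and 0.12. Axin2, a scaffold whose transcription is widely used to read beta-catenin activity, stood at 5.18 and 5.23, and its further probe set at 5.01 and 5.39. The difference of Axin2 was -0.05 as deposited and -0.38 on the further probe set. With quantile normalization it was -0.39, but there the brightest probe set was chosen anew. The values of -0.38 and -0.39 may therefore come from the same probe set and do not count as separate observations. All 5 genes of this group were within 1.5-fold, with a median difference of 0.02.

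All 3 TCF/LEF genes measured had lower values after anti-CD84, as had 5439 of all 13284 detected genes. The sign held under each alternative that kept them (the stricter level left out Lef1), but this adds little. Centring, loess removal and quantile normalization moved all 3 values lower, and the other alternatives left them unchanged. Tcf7l1, the family member best known as a repressor, was 1.39-fold lower, at 8.21 against 8.68, and passed 1.5-fold only with the loess curve removed, at a difference of -0.60. Tcf7l2 (8.52 and 8.62) and Lef1 (6.56 and 6.66) each had a difference of -0.10. For scale, 2.93% of all genes with a mean level from 7 to 9 were at least 1.5-fold lower.

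The 250 bases before the start site are printed here for Fzd5, Fzd7 and Lgr4, members with higher values after anti-CD84. They are also printed for Axin2 and Dkk1, which read or restrain the pathway. Shared regulation of these genes was not tested. The 5 genes were chosen after their values were seen. Sequences are from RefSeq (GRCm38.p6), 5′ to 3′ on the gene's strand, and capitals mark matches to a TCF/LEF core motif, searched on both strands as CTTTG followed by 2 bases that are each A or T.
Fzd5, chr1:64737751-64738000, minus strand: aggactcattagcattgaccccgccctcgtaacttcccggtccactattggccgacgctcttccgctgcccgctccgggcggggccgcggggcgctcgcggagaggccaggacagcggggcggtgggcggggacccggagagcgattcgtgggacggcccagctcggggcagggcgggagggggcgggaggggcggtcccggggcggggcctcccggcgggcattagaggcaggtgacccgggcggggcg
Fzd7, chr1:59481897-59482146, plus strand: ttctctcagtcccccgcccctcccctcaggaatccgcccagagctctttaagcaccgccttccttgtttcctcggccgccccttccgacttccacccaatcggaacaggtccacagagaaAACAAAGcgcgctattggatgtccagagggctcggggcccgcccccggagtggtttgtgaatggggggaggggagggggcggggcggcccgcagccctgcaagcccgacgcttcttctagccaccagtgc
Lgr4, chr2:109917397-109917646, plus strand: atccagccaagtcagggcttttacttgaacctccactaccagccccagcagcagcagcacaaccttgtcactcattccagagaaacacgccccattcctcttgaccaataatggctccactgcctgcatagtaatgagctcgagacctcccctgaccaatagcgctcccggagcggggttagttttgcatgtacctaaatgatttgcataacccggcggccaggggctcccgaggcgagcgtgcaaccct
Axin2, chr11:108920099-108920348, plus strand: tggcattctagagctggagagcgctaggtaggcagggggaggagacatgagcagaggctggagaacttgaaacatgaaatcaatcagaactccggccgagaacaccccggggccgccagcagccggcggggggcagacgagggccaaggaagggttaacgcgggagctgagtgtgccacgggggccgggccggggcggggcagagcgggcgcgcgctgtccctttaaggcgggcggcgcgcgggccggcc
Dkk1, chr19:30549497-30549746, minus strand: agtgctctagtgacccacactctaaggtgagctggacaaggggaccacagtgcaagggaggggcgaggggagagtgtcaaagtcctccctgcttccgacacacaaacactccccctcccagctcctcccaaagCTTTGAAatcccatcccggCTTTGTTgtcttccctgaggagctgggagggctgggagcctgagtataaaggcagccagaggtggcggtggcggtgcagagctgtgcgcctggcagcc

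Of these 5 windows, Dkk1 held 2 matches and Fzd7 held 1, on the opposite strand. The first base of the Fzd7 match lay 130 bases before the start, and those of the Dkk1 matches 117 and 98 bases before it. No match in a window says only that these letters are not in it. Member windows on 1 chromosome were left out before counting. Windows were used for 39 of the 61 members, with 48 start sites. Of these 48 windows 6 (12.5%) held a match, against 14.8% of all 32851 windows. The members' windows were rich in G and C, with a median of 66.4% against 52.4% for all windows. The 6 frizzled windows had a median of 74.6%. Fzd2, Fzd6 and Fzd8 had no window among those used, which does not show that the source lacks an entry for them.

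Genes known as targets of beta-catenin showed no common direction. Of 35 listed genes 30 were measured and 25 detected, of which 3 were 1.5-fold or more higher, 2 were lower by as much and 20 lay within that range. These shares are near the 10.7% and 6.40% of all detected genes. The median difference was -0.04, and its sign turned with both stricter filters on low values and with the mean of all probe sets. Bmp4, a bone morphogenetic protein, was 1.89-fold higher (6.84 against 5.92) and Fst, which binds activin, 1.85-fold higher (6.62 against 5.74). Nkd2, an inhibitor that binds Dishevelled, was 1.79-fold lower (5.23 against 6.07), and the growth factor gene Fgf18 was 1.75-fold lower (4.93 against 5.74). The widely used targets Ccnd1 (10.66 and 10.51) and Myc (10.32 and 10.36), named after their values were seen, were nearly alike on the arrays. Notum, an enzyme that removes the lipid from Wnts, lay about at the detection level (4.79 and 4.91), and Sp5 (4.17 and 4.41) and Nkd1 (4.18 and 4.44) were undetected.

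Inside the cell, the relays of the pathway were also mostly within 1.5-fold. Of 40 detected cytoplasmic and nuclear components 1 was higher, 3 were lower and 36 lay within that range, beside 10.7% and 6.40% of all detected genes, and the median was 0.08. Amer1, a membrane-bound partner of Apc, was 1.95-fold higher (7.34 against 6.38). Csnk2a1, a catalytic subunit of casein kinase 2, was 1.58-fold lower (9.04 against 9.70), Tab1, an activator of the kinase Tak1, 1.56-fold lower (7.42 against 8.06) and Pygo2, a nuclear co-activator of beta-catenin, 1.51-fold lower (6.06 against 6.65). Of the 3 Dishevelled genes, which relay the signal from the frizzled receptors, Dvl2 (7.02 and 6.55) differed by 0.46, and Dvl1 (7.57 and 7.72) and Dvl3 (9.04 and 8.94) by -0.15 and 0.10.

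The branch that acts through cell polarity and calcium had 29 detected genes, with 2 that were 1.5-fold or more higher and 1 lower, beside 10.7% and 6.40% of all detected genes, and a median of 0.08. With the difference centred or the loess curve removed, 1 was higher and 3 were lower. Daam1, a formin that acts on actin downstream of Dishevelled, was 2.03-fold higher (7.31 against 6.28), whereas its relative Daam2, named after its values were seen, was 1.48-fold lower (5.60 against 6.17). Invs, an ankyrin-repeat protein that acts on Dishevelled, was just past 1.5-fold higher (7.07 against 6.49). Gpc4, a heparan sulfate proteoglycan of the surface, was 1.64-fold lower (7.92 against 8.63). The receptors of this branch were within 1.5-fold: Ryk stood at 10.85 and 10.84, Ror1 at 5.38 and 5.28 and Ror2 at 5.45 and 5.96. The signs of the medians of this list and of the preceding one turned under some alternatives.

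Other extracellular modulators had 21 detected genes, of which 4 were 1.5-fold or more higher and 2 lower, beside 10.7% and 6.40% of all detected genes. With both arrays required 3 were higher and 0 lower. The median of 0.21 became 0.08 with floored values and 0.04 without the level filter. Sulf2, a sulfatase that edits heparan sulfate and so the binding of Wnts, was 1.87-fold higher (7.62 against 6.71). Draxin, a secreted guidance protein that can antagonise Wnts, was at least 2.02-fold lower, with 4.84 after anti-CD84, just under the unrounded detection level, against 5.85. Dkkl1, a Dickkopf-like protein, was at least 1.01-fold lower (not detected after anti-CD84 and 4.86 after IgG1) and Tspan12, a partner of Fzd4, at least 1.06-fold higher (4.92 and 4.20). The Dickkopf co-receptors Kremen1 (8.20 and 8.21) and Kremen2 (5.43 and 5.41) were alike on the arrays.

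**Figure D3:**
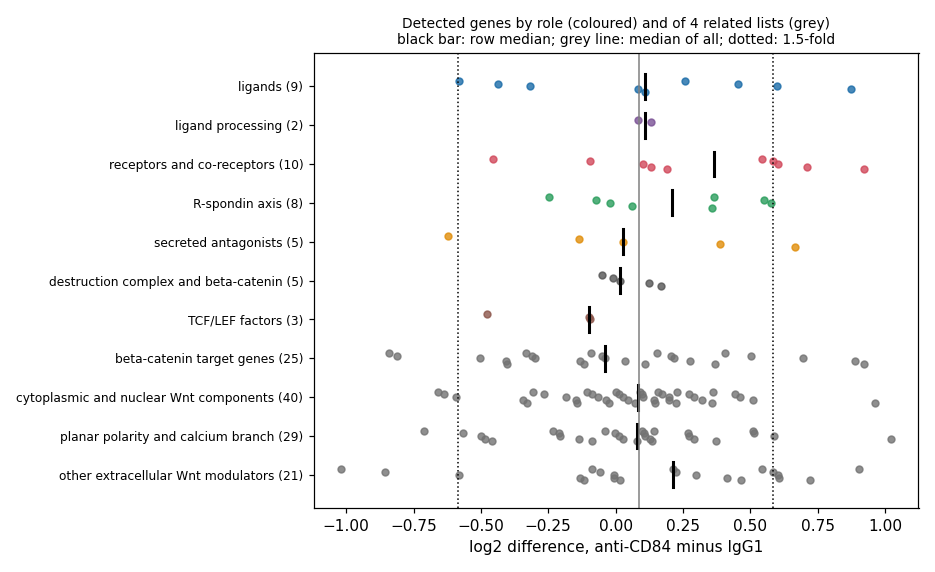
Log2 difference, anti-CD84 minus IgG1, of each detected gene (point) by role for the 42 detected members (coloured) and for 4 lists of related genes (grey), with the number of detected genes in brackets, the median of each row as a black bar, the median of all detected genes, 0.09, as a grey line and 1.5-fold dotted. The receptor row has its median at 0.37, the TCF/LEF row lies wholly below 0, and the beta-catenin targets spread to both sides.

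Marker genes of other cells and of the stroma were compared in the same way. Of the 15 detected stromal markers 3 were 1.5-fold or more higher and 0 lower (10.7% and 6.40% of all detected genes), with a median of 0.22 against 0.09. The 3 were Cxcl12 (10.29 against 9.19), Pdgfra (10.21 against 9.29) and Foxc1 (9.52 against 8.77). The values of all 18 genes, summed on the linear scale, came to 30214 after anti-CD84 and 25820 after IgG1. Of the endothelial list 3 of 7 genes were detected. Cdh5 (4.61 and 5.56) was at least 1.65-fold lower and Pecam1 (4.32 and 4.99) at least 1.11-fold lower, both detected only after IgG1, so the list's median of -0.67 became -0.15 with floored values, and Emcn, alone detected on both arrays, had a difference of 0.00. Among blood cell markers Csf1r (4.86 and 4.14) was 1.5-fold apart by measured values. Summed over all measured genes, mostly undetected ones, the endothelial list came to 153 and 199 and the blood cell list to 329 and 357, sums that hold much background signal. The part of these lists in the differences of the frizzled genes was not tested, and in a bulk culture fewer cells of a type and less RNA per cell cannot be told apart. Osteoblast markers were detected in 3 of 7 cases (median -0.01, and -0.26 without the level filter). Alpl, the bone alkaline phosphatase, stood at 5.48 and 5.75, and Phex, detected only after anti-CD84, at 4.85 and 4.68. The other detected gene, Col1a1, is also among the stromal markers, and the median of -0.01 is its difference. Adipocyte markers were detected in 4 of 7 cases, with Fabp4 at 4.56 and 5.13 and Plin1 at 4.61 and 5.11, both detected only after IgG1. The list's median of -0.38 became -0.09 with both arrays required. Of the genes detected on both, Pparg, the master regulator of fat cells, stood at 7.81 and 8.06. As deposited, none of the detected osteoblast and adipocyte markers was 1.5-fold apart, and 1 adipocyte marker was that much lower when the difference was centred.

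**Figure D4:**
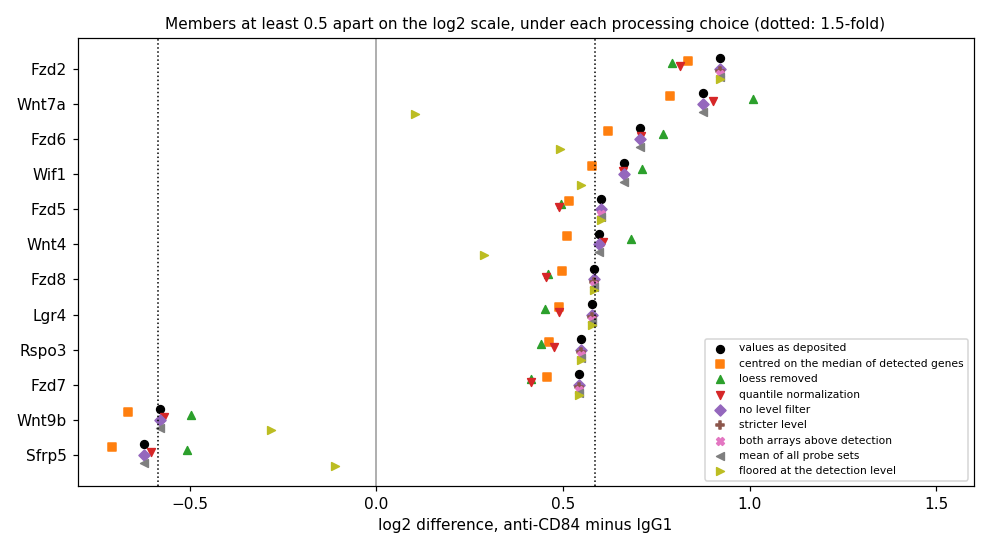
Log2 difference, anti-CD84 minus IgG1, of the 12 detected members at least 0.5 apart, under the deposited values (black) and each alternative that kept the gene (coloured), with 1.5-fold dotted. Fzd2 stays beyond the dotted line, although only centring, loess removal and quantile normalization change its difference. Wnt7a drops to 0.10 and Sfrp5 to -0.11 when values are floored at the detection level.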

How the data were processed

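RNA of M210B4 cells was measured on 1 array per condition. The deposited table holds log2 expression values for 41345 probe sets, made with RMA and Partek per the submitters' processing notes; the sources used here name no version, setting or genome build. That the scale is log2 was inferred from the values (1.82 to 13.8, medians 4.87 and 4.88). In general, RMA tends to compress differences of dim probe sets. Of the probe sets 23521 carry 1 gene symbol in GEO's platform annotation and were used, and the 1814 with several were not. A gene was represented by its brightest probe set. All 61 members matched RefSeq (GRCm38.p6) by gene ID, with 0 symbols differing.

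Differences are anti-CD84 minus IgG1, counted at 1.5-fold and 2-fold, beside the share of all detected genes. No test was possible with 1 array per group. Levels of different genes were not ranked, since probe sets differ in response. Every detected member is given, and up to 4 genes per related list that were 1.5-fold apart, or 2 where none was; genes named beyond this were chosen after their values were seen. Members and lists were chosen with earlier results of these data known.

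The 8 alternatives were centring on the median, a loess curve removed (limma, span 0.4), quantile normalization, dropping the filter on level, requiring 6.88 (the upper quartile of all values) instead, requiring detection on both arrays, the mean of all probe sets, and values floored at the detection level. The counting step was checked on simulated data at 2-fold only, with changes larger than any member's and less spread than the arrays show. The check does not cover the 1.5-fold counts. The tools were limma 3.58.1 in R 4.3.3, and pandas 2.3.3, numpy 2.4.6 and matplotlib 3.10.9 in Python 3.11.15.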

Additional observations from a re-analysis of the deposited data

How the results depend on the processing

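The 42 detected members became 19 with the stricter level. The count of members at least 1.5-fold higher, 6 as deposited, was 3 when centred (Fzd2, Fzd6 and Wnt7a), 1 with the stricter level (Fzd2), and 2 both with detection required on both arrays and with floored values (Fzd2 and Fzd5). It was 5 or 6 under the others. The count at least 1.5-fold lower, 1 as deposited, was 2 when centred and 2 with no level filter, and 0 with the stricter level, with both arrays required and with floored values. With the loess curve removed it was again 1, but the member was Tcf7l1 (-0.60), and Sfrp5 (-0.51) fell short. Removing the loess curve brought 1 member, Wnt7a, past 2-fold higher (1.01), and the other alternatives brought 0. The median difference of the members ran from 0.02 to 0.17, and that of all genes from 0.00 to 0.12. No member past 1.5-fold changed sign. The signs of 8 others (Wnt10b, Porcn, Lrp5, Lrp6, Lgr6, Sfrp4, Axin1 and Gsk3b) turned in at least 1 alternative. Of the single differences under the alternatives 301 moved by less than the standard deviation of 0.44 and 2 by more, Wnt7a (0.10) and Sfrp5 (-0.11), both with floored values, which by construction shrink a difference that starts below the detection level. Much of the 301 was fixed in advance. The alternatives that only change the filter on level leave a difference as it is. The mean of all probe sets alters only genes with several, and flooring only genes below the level on an array. With 1 array in each group there was no replicate to leave out. No paired analysis was possible because each group has 1 sample.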
